A study of Homo sapiens with 24 samples.

Results

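Matrix metalloproteinases and their tissue inhibitors were followed across 4 groups of human HB2 cells that received a control siRNA or 1 of 3 siRNAs against the long noncoding RNA GNG12-AS1. The members were MMP1, MMP2, MMP3, MMP9, MMP10, MMP13, MMP14, TIMP1, TIMP2 and TIMP3, taken by gene symbol with every array probe annotated to 1 of these names. All 10 genes had a probe. TIMP2 had a pair of probes and the others had 1 each, which gave 11 member probes out of 47228 with a value on all arrays. The rule uses gene names alone and no measured value, although an earlier result for MMP9 in these data was known when the group was chosen.

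HB2 is an immortalised human mammary epithelial line, grown in medium with serum, insulin and hydrocortisone in all groups. The cells were transfected with DharmaFECT 3 and 50 nM of siRNA, either the control or 1 of those aimed at GNG12-AS1 in its exon 1, its exon 7 and its exon 9, and RNA was taken 48 h later. Each group had 6 arrays that the labels call biological replicates, and 24 Illumina bead arrays were read. Each exon was targeted by 1 siRNA, so an effect of the exon and an effect of that siRNA's own sequence cannot be told apart. The titles number the experiments, each with 1 array of every group. No probe was annotated to GNG12-AS1 (0 of 47228), so the knockdown could not be checked here.

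Matrix metalloproteinases are zinc enzymes that cut the proteins of the extracellular matrix. Most are secreted as inactive precursors, while MMP14 sits in the cell membrane and activates MMP2. MMP1 and MMP13 are collagenases, MMP3 and MMP10 stromelysins, and MMP2 and MMP9 the gelatinases, which cut basement membrane collagen. TIMPs bind the active enzymes and block them. TIMP3, unlike the other TIMPs, is held in the matrix and also blocks ADAM17, and TIMP2 takes part in the activation of MMP2 by MMP14. In the mammary gland these enzymes and inhibitors remodel the matrix around ducts and acini.

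A value is a normalised log2 intensity, and a probe counted as above background on an array when fewer than 5% of 437 olfactory receptor probes, used as surrogates of background, were as bright (detection p below 0.05). Between 34.2% and 39.5% of all probes lay above background on each array. Array medians before normalisation ranged from 7.41 to 7.74. Of 9 epithelial marker genes with a probe, 8 were above background on all arrays (EPCAM, CDH1, ITGB4 and keratins KRT5, KRT7, KRT8, KRT18 and KRT19), and KRT14 on none. PDGFRA and PDGFRB of 9 fibroblast markers, PTPRC, LYZ and CD3E of 8 immune markers and CDH5, KDR and VWF of 5 endothelial markers were above background on no array, while the fibroblast markers FAP and THY1 and the immune markers CD14 and CD68 were above it on all. Levels are set only against the same probe in other groups, since brightness differs between probes for reasons other than abundance. In RNA from whole cultures, a change in the share of expressing cells and a change in RNA per cell cannot be told apart.

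TIMP3 is the member with a RefSeq promoter window on which differences between siRNAs turned, and its 300 bases are shown here (GRCh38.p14, chr22:32801455-32801754, plus strand, from 250 bases before to 50 after the annotated start), with CG pairs in capitals, since this promoter is known to be silenced by methylation of such pairs in some tumours.
TIMP3: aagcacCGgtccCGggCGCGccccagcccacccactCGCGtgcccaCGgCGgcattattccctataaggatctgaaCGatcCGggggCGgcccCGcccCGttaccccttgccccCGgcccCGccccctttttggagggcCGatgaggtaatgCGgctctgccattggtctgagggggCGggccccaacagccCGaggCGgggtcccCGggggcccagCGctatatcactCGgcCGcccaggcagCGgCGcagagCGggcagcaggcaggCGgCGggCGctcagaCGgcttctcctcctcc
The window held 31 CG pairs, more than 79.35% of 35116 RefSeq promoter windows of this length (median 14). The windows of MMP10, MMP14 and TIMP1 held 2, 10 and 16. The AP-1 motif TGANTCA (N any base, the same on either strand) occurred once in the MMP10 window and 0 times in those of MMP14, TIMP1 and TIMP3, against 7.71% of all windows with at least 1 match. These counts describe the windows only, and methylation was not measured.

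The first question was which members could be measured at all. TIMP1 and both TIMP2 probes were above background on all 24 arrays. The TIMP3 probe was above it on 13 arrays and the MMP9 probe on 9. The collagenases MMP1 and MMP13 and the stromelysins MMP3 and MMP10 were each above it on 2 arrays, and MMP2 and MMP14 on 0. Filtering for probes above background on at least 6 arrays left 5 of 11 member probes, from 4 of 10 genes, among 19395 probes tested. MMP9 passed that filter with 6 of its 9 detected arrays in the exon 1 group, and TIMP3 with 5 of 13 in each of the exon 1 and exon 9 groups.

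**Figure D1:**
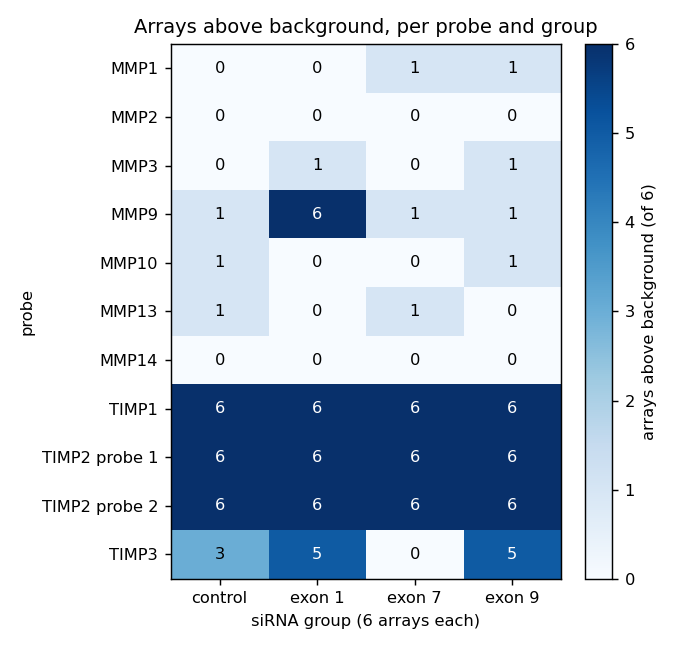
Number of arrays above background (of 6) for each of the 11 member probes, in rows, and each siRNA group, in columns, with darker blue for more arrays. TIMP1 and TIMP2 show 6 in every group, MMP9 shows 6 under exon 1 and 1 elsewhere, TIMP3 shows 0 under exon 7, and the other members show 0 or 1.

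For the 6 members outside the filter the signal lay within that of the surrogate probes. MMP1 was above background on 0 control, 0 exon 1, 1 exon 7 and 1 exon 9 arrays. MMP3 was above it on 0, 1, 0 and 1, MMP10 on 1, 0, 0 and 1, and MMP13 on 1, 0, 1 and 0. At a stricter detection p below 0.01, MMP10 kept 1 exon 9 array and MMP1, MMP3 and MMP13 none. The median MMP2 and MMP14 values were brighter than 35.9% and 45.1% of the surrogates on the same array, against 72.5% for MMP1, 78.7% for MMP10, 83.1% for MMP3 and 84.4% for MMP13. MMP10, MMP1 and MMP3 lie next to each other on chromosome 11, with MMP13 1 coding gene further on, and this cluster gave no group in which more than 1 of 6 arrays passed. A signal at background limits only what these probes could detect and does not show that the transcripts were absent.

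A fit without the detection filter gave these 6 probes differences from control of -0.11 to 0.19 on the log2 scale. In 36 tests over the 6 comparisons between groups, limma called 0 of them, and 0 had an unadjusted p below 0.05 (smallest adjusted p = 0.579). MMP14, for example, had lowest, median and highest values of 5.29, 5.45 and 5.83 in controls and of 5.29, 5.43 and 5.49 under exon 1. These ranges overlapped, and no order of the groups could be read for any of the 6 probes.

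MMP9, which encodes gelatinase B, was the member that rose against control. Its lowest, median and highest values were 5.60, 5.89 and 6.50 in controls. Under exon 1 they were 6.84, 7.32 and 7.77. Under exon 7 they were 5.92, 6.31 and 6.44, and under exon 9 6.09, 6.14 and 6.67. All 6 exon 1 arrays lay above every array of the other groups, whereas the control, exon 7 and exon 9 groups overlapped. The probe was above background on 6 exon 1 arrays and on 1 array of each other group, and at the stricter level on 5 exon 1 arrays and on 0 others.

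The group means of MMP9 were 7.28 ± 0.38 under exon 1, 6.26 ± 0.19 under exon 7, 6.22 ± 0.22 under exon 9 and 5.96 ± 0.33 in controls (SD, n = 6). Exon 1 exceeded control by 1.32 ± 0.16 (limma, log2 difference ± SE, adjusted p = 7.69e-06), exon 7 by 1.03 ± 0.16 (adjusted p = 0.000199) and exon 9 by 1.06 ± 0.16 (adjusted p = 0.000175). MMP9 entered this fit through the exon 1 arrays, since only 3 of the other 18 were above background. Without the detection filter the adjusted p over all 47228 probes was 1.55e-05 against control, 0.000410 against exon 7 and 0.000351 against exon 9 by limma. Most values outside the exon 1 group were not above background, so these differences are better read as bounds on the background-corrected scale. Without background correction the measured differences were smaller, at 0.69, 0.51 and 0.53. With dim values set to the lowest signal above background on their array, bounds were taken from the corrected group means. On that scale MMP9 was at least 1.86-fold higher under exon 1 than in controls, 1.82-fold higher than under exon 7 and 1.83-fold higher than under exon 9. These folds leave out sampling error. Exon 7 and exon 9 differed from control by 0.30 (95% interval -0.03 to 0.63, adjusted p = 0.575) and 0.26 (-0.07 to 0.59, adjusted p = 0.554), and from each other by 0.04 (-0.29 to 0.37). These intervals include 0 and do not show that the 3 groups were equal.

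Within the experiments, MMP9 was higher under exon 1 than in the control array of the same number in 6 of 6, by 0.71 to 1.77. Against the exon 7 array it was higher in 6 of 6 by 0.56 to 1.45, and against the exon 9 array in 6 of 6 by 0.70 to 1.63. The first and the last 12 columns of the deposited table hold 3 arrays from every group apiece and were also fitted as separate sets, by column position alone. Exon 1 exceeded control by 1.07 in the first set (adjusted p = 0.0227) and by 1.58 in the second (adjusted p = 0.0227). Against exons 7 and 9 the differences were 0.99 and 1.03 in the first set (adjusted p = 0.0295 and 0.0339) and 1.06 and 1.10 in the second (adjusted p = 0.0718 and 0.105). Without background correction the exon 1 difference from control was 0.69 (adjusted p = 6.44e-06), and those from exons 7 and 9 were 0.51 and 0.53.

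**Figure D2:**
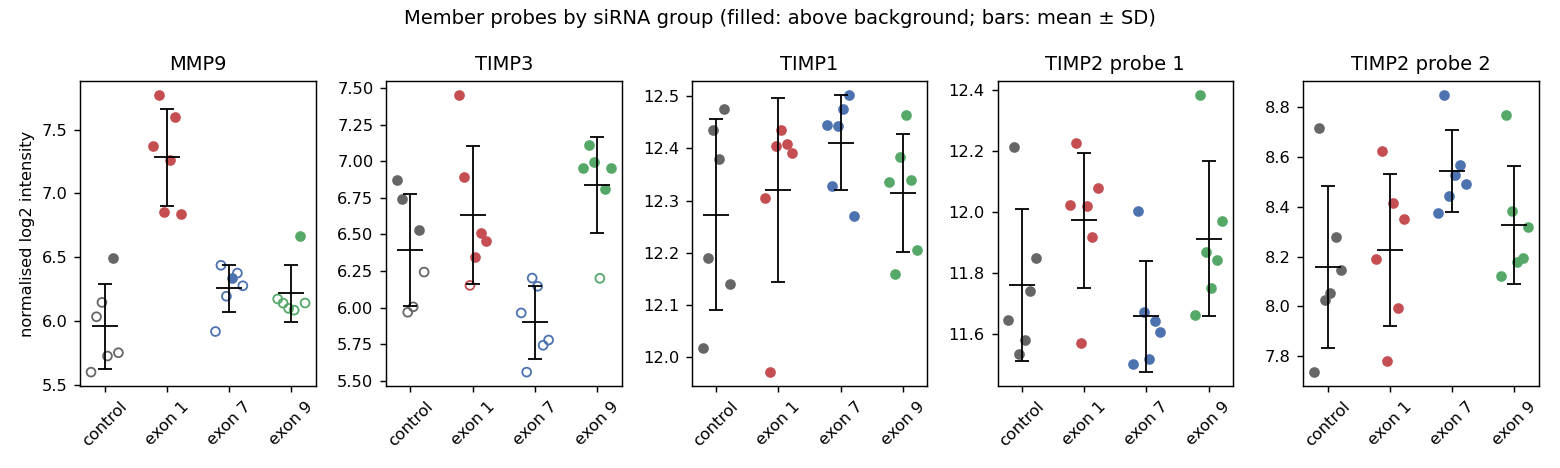
Normalised log2 intensity of the 5 tested member probes on each array by siRNA group (filled circles above background, open circles not; horizontal mark and bar, mean ± SD, n = 6; each panel has its own axis). The 6 exon 1 arrays of MMP9 (6.84 to 7.77) lie above all others, the exon 7 arrays of TIMP3 (5.56 to 6.20) are all open, and TIMP1 and the TIMP2 probes overlap between groups.

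The genes whose values followed MMP9 most closely over the 24 arrays, by the root mean square difference of mean-centred values, were SPOCD1 (0.283), TGFB1I1 (0.284) and ADAM19 (0.297), where MMP9 itself varied by 0.572 around its mean. TGFB1I1 encodes a focal adhesion adaptor and ADAM19 a membrane-bound metalloproteinase. Because these genes were picked for their likeness to MMP9 on the same arrays, their differences from control are given as a description with no test. Under exons 1, 7 and 9 they were 1.09, -0.19 and 0.09 for SPOCD1, 0.91, 0.26 and 0.21 for TGFB1I1 and 0.94, -0.11 and 0.05 for ADAM19.

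TIMP3 differed between the siRNAs and not, past the threshold, from control. Its lowest, median and highest values were 5.97, 6.39 and 6.87 in controls. Under exon 1 they were 6.15, 6.48 and 7.45. Under exon 7 they were 5.56, 5.87 and 6.20, and under exon 9 6.20, 6.95 and 7.11. Under exon 7 the probe was above background on 0 of 6 arrays, against 3 control, 5 exon 1 and 5 exon 9 arrays. The exon 7 arrays were the dimmest as a group, but every other group held at least 1 array within their range.

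The group means of TIMP3 were 6.84 ± 0.33 under exon 9, 6.63 ± 0.47 under exon 1, 6.39 ± 0.38 in controls and 5.9 ± 0.25 under exon 7 (SD, n = 6). Exon 7 lay below exon 9 by 0.94 on the measured scale (-0.94 ± 0.20, limma, adjusted p = 0.00907), and exon 1 lay above exon 7 by 0.73 ± 0.20 (adjusted p = 0.0213). TIMP3 entered the fit with 10 of its 13 detected arrays in the exon 1 and exon 9 groups, and without the detection filter these adjusted p were 0.0187 and 0.0452 by limma. For a bound, dim exon 7 values were set to the lowest signal above background on their array. Mean TIMP3 was then 1.34-fold higher under exon 9 and 1.16-fold higher under exon 1 than under exon 7. The exon 9 and exon 1 groups were above background on 5 of 6 arrays each. Their remaining array was kept as measured, so these folds are not strict minima. For control against exon 7, with 3 of 6 control arrays above background, this gave 0.98-fold, which sets no minimum. All these folds are on the background-corrected scale and leave out sampling error. For exon 1 against exon 7 the log2 value of 0.22 was close to the SE of 0.20. Against control the differences were -0.49 for exon 7 (95% interval -0.90 to -0.08, adjusted p = 0.343), 0.44 for exon 9 (0.03 to 0.85, adjusted p = 0.331) and 0.24 for exon 1 (-0.17 to 0.65, adjusted p = 0.577). The unadjusted p was 0.0200 for exon 7 and 0.0352 for exon 9 by limma. No neighbouring pair in the order exon 9, exon 1, control, exon 7 passed the threshold (adjusted p = 0.672, 0.577 and 0.343 by limma).

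Within the experiments TIMP3 was lower under exon 7 than under exon 9 in 6 of 6, by 0.05 to 1.55, and lower than under exon 1 in 5 of 6. In the 2 column sets exon 7 minus exon 9 was -1.05 and -0.83 (adjusted p = 0.199 and 0.282), and exon 1 minus exon 7 was 0.78 and 0.69 (adjusted p = 0.170 and 0.2995), so neither set passed alone. The call for exon 1 against exon 7 was lost without exon 1 replicate 1 (0.57, adjusted p = 0.0633), exon 1 replicate 2 (adjusted p = 0.0590) or exon 7 replicate 2 (adjusted p = 0.0538). The call for exon 7 against exon 9 was kept with any 1 array left out (adjusted p up to 0.0308). Without background correction the differences were 0.39 and -0.48 (adjusted p = 0.0134 and 0.00574). SYN3, a synapsin gene within which TIMP3 lies, had 2 probes, above background on 1 and 0 of 24 arrays.

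The summed linear signal of the 9 fibroblast markers was low under exon 7, with overlap with exon 9, and the exon 9 range overlapped that of controls. It ranged from 2880 to 3361 under exon 7, from 3503 to 4192 in controls, from 3818 to 5145 under exon 1 and from 3227 to 3759 under exon 9. The median difference of the tested fibroblast probes from control was 0.14, -0.13 and -0.17 under exons 1, 7 and 9. Between exons 7 and 9, 0 of them passed. Of 5 marker probes tested, THY1, a surface glycoprotein, fell under exon 7 (-0.38 ± 0.09, limma, adjusted p = 0.0470) and was higher under exon 1 than under exon 7 by 0.52 ± 0.09 (adjusted p = 0.00104) and than under exon 9 by 0.34 ± 0.09 (adjusted p = 0.0315). The summed epithelial signal ranged from 63136 to 70869 under exon 7 and from 62280 to 71089 under exon 9. It ranged from 65019 to 74517 under exon 1 and from 66691 to 76936 in controls. The median difference of the tested epithelial probes from control was -0.07, -0.03 and -0.11 under exons 1, 7 and 9. In every comparison 0 of 12 epithelial probes passed. The immune sum ranged from 2786 to 3745 under exon 1, from 3267 to 5001 under exon 7, from 2801 to 3857 under exon 9 and from 3517 to 4956 in controls. Of 7 immune probes tested, 2 fell under exon 1 (both of CD14, -0.80 and -0.97; limma, adjusted p = 0.00252 and 0.0203) and 1 of these also fell under exon 9 (-0.72, adjusted p = 0.0144). Against control, 3.47% of all tested probes were lower under exon 1, 0.459% under exon 7 and 1.07% under exon 9. Of all tested probes, 3.87% were higher under exon 1 than under exon 7 and 2.71% than under exon 9. The part of these markers in the MMP9 and TIMP3 results was not tested.

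TIMP1, a broadly acting secreted inhibitor, passed in no comparison. Its lowest, median and highest values were 12.02, 12.28 and 12.47 in controls, 11.97, 12.40 and 12.44 under exon 1, 12.27, 12.44 and 12.50 under exon 7 and 12.16, 12.34 and 12.46 under exon 9. The groups overlapped throughout. The differences from control were 0.05 (95% interval -0.14 to 0.23), 0.14 (-0.05 to 0.32) and 0.04 (-0.14 to 0.23), with limma adjusted p of 0.854, 0.698 and 0.931. The widest bound of these intervals was 0.32. Within the experiments TIMP1 was higher under exon 7 than in control in 6 of 6, by 0.01 to 0.43, and under exons 1 and 9 in 3 of 6 each.

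**Figure D3:**
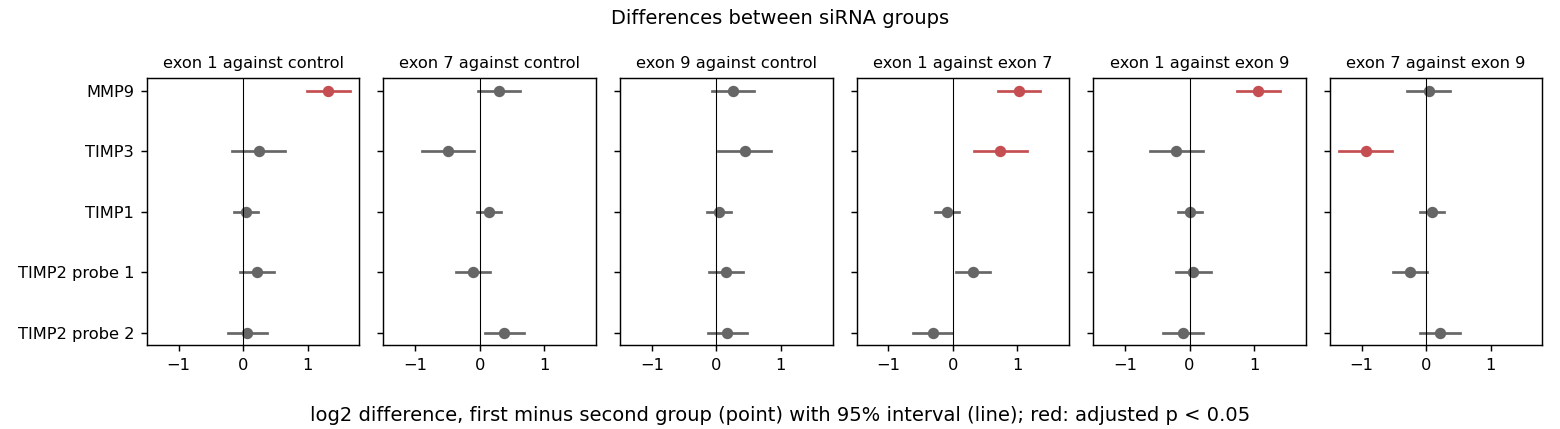
Log2 differences (points) with 95% intervals (lines) of the 5 tested member probes, in 1 panel for each of the 6 comparisons between groups; red marks an adjusted p below 0.05. MMP9 is red in the 3 comparisons with exon 1 and TIMP3 in exon 1 against exon 7 and exon 7 against exon 9.

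MMP9 was tested with 6 of its 9 detected arrays under exon 1, and TIMP3 with 5 of 13 under each of exons 1 and 9. The counts and medians below therefore describe the tested member probes and are no test against all probes. Of the 5 tested member probes, 1 rose and 0 fell under exon 1 against control, where limma called 6.96% of all tested probes (3.49% higher and 3.47% lower). Against control, 0 passed under exon 7, where 1.17% of all probes did (0.712% higher and 0.459% lower), and 0 under exon 9, where 2.34% did (1.27% higher and 1.07% lower). With the replicate number as a block, 1 member probe passed under exon 7, where 585 of all 19395 probes did. At an unadjusted p below 0.05 by limma, 2 member probes passed under exon 7 and 1 under exon 9. For exon 1 against exon 7, 2 member probes passed as higher and 0 as lower, where 3.87% of all probes were higher and 4.04% lower (7.91% called). Under exon 1 against exon 9 1 was higher and 0 lower, where 2.71% of all probes were higher and 2.81% lower (5.52% called). Under exon 7 against exon 9 0 were higher and 1 lower, where 1.41% of all probes were higher and 1.27% lower (2.68% called). The median over the member probes was 0.21, 0.14 and 0.17 against control for exons 1, 7 and 9, and 0.00 over all probes in each. The groups of MMP9 did not overlap in its 3 comparisons with exon 1, as held for 3.57% of all tested probes against control, 4.05% against exon 7 and 3.51% against exon 9. In the other comparisons 0 member probes had groups that did not overlap, against 1.49% of all probes for exon 7 and 2.27% for exon 9 against control, and 2.53% between exons 7 and 9. The 3 comparisons with control share the control arrays and are not independent of each other.

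The TIMP2 probes differed in how they stood under exon 7 against the other groups. Neither was called against control in the main fit, which left out the experiment number. Probe 1, the brighter of the pair, had lowest, median and highest values of 11.53, 11.69 and 12.21 in controls, 11.57, 12.02 and 12.23 under exon 1, 11.50, 11.63 and 12.01 under exon 7 and 11.66, 11.86 and 12.38 under exon 9. Probe 2 had 7.74, 8.10 and 8.72 in controls, 7.78, 8.27 and 8.63 under exon 1, 8.38, 8.51 and 8.85 under exon 7 and 8.12, 8.26 and 8.77 under exon 9. On probe 1 the exon 7 group had the lowest mean, and on probe 2 it had the highest. All groups overlapped on both probes. Both are annotated to the same gene, and the part of the transcript that each reads was not examined here.

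Against control under exon 7, probe 1 differed by -0.10 (95% interval -0.37 to 0.16, limma, adjusted p = 0.909) and probe 2 by 0.38 (0.08 to 0.69, adjusted p = 0.304). Between exon 1 and exon 7, probe 1 was higher under exon 1 by 0.31 (adjusted p = 0.149) and probe 2 lower by 0.32 on the measured scale (-0.32, adjusted p = 0.217). With the replicate number as a block, probe 2 passed against control under exon 7 (adjusted p = 0.0339), and both probes passed between exons 1 and 7 (adjusted p = 0.00980 for probe 1 and 0.0312 for probe 2), in opposite directions. Within the experiments, probe 2 was higher under exon 7 than in control in 6 of 6, by 0.13 to 0.64, and probe 1 was lower in 5 of 6. Under exons 1 and 9 the probes differed from control by 0.07 to 0.21, with no call.

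The offset between the probes on each array was then compared, a test chosen after these values were seen. Its p-values, also when adjusted over the comparisons, do not cover that choice. Probe 2 minus probe 1 had lowest, median and highest values of -3.91, -3.52 and -3.47 in controls, -3.92, -3.76 and -3.60 under exon 1, -3.23, -3.12 and -2.99 under exon 7 and -3.65, -3.59 and -3.48 under exon 9. All 6 exon 7 arrays lay above all 18 others. How often the offsets of other probe pairs of a gene separate groups in this way was not computed. The offset changed by 0.49 ± 0.08 from control to exon 7 (SE, exact permutation test, two-sided, p = 0.00216, the smallest that 924 splits allow, adjusted over 6 comparisons 0.00433). It was lower under exon 1 than under exon 7 (-0.63 ± 0.06) and higher under exon 7 than under exon 9 (0.47 ± 0.04), both with the same p by the exact permutation test. Exon 1 differed from exon 9 by -0.16 (exact permutation test, adjusted p = 0.0390), while exon 1 and exon 9 differed from control by -0.15 and 0.02 (adjusted p = 0.148 and 0.870). In the 2 column sets the exon 7 change from control was 0.35 and 0.62, where an exact permutation test of 3 against 3 arrays cannot go below p = 0.1. An unequal change of the probes does not show which of them changed.

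**Figure D4:**
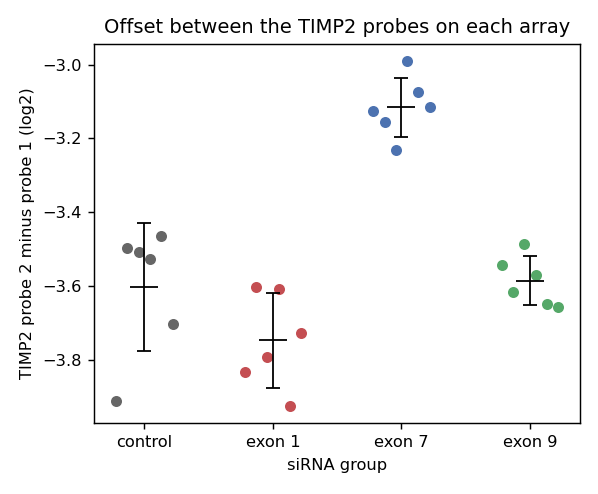
TIMP2 probe 2 minus probe 1 on the log2 scale for each array, by siRNA group (points, arrays; mark and bar, mean ± SD, n = 6). The exon 7 arrays (-3.23 to -2.99) lie above all arrays of the other groups (-3.92 to -3.47).

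Several lists of genes that act with or on the metalloproteinases were read in the same fit, with the rest of the family first. Of 31 other metalloproteinases and inhibitors, 15 had a tested probe, with 21 probes in all. Under exon 1, 2 of the 21 rose and 0 fell: ADAM19 by 0.94 ± 0.15 (limma, adjusted p = 0.000288) and ADAMTS9, a secreted proteoglycan-cutting enzyme, by 0.62 ± 0.17 (adjusted p = 0.0265). The ADAM19 probe is the one named above for its likeness to MMP9, so its rise is not a separate result. Under exon 7 0 passed (2 at an unadjusted p below 0.05 by limma). Under exon 9 1 fell, the leukocyte-type sheddase ADAM8 (-0.85 ± 0.13, adjusted p = 0.000290). The list medians were 0.05, -0.03 and -0.06. RECK, a membrane inhibitor of MMP9, differed from control by 0.03, 0.23 and -0.08 under exons 1, 7 and 9 with no call.

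Of 18 genes of plasminogen activation and other regulation, 13 were tested with 17 probes. Plasmin, made by these activators, cuts several MMP precursors. Under exon 1, 5 probes rose and 0 fell, among them the serpin SERPINB5 (maspin; 0.74 ± 0.08, limma, adjusted p = 3.88e-06), SERPINE2 (0.40 ± 0.10, adjusted p = 0.0186) and both probes of CAV1, the caveolar coat protein (0.31 and 0.39). Under exon 7 0 passed (3 at an unadjusted p below 0.05 by limma). Under exon 9 0 rose and 3 fell, including 2 of 3 probes of the urokinase receptor PLAUR (-0.75 ± 0.14 and -0.60 ± 0.15; the third gave -0.40). Urokinase itself, PLAU, differed by 0.09, 0.08 and -0.28 under exons 1, 7 and 9 with no call. The list medians were 0.16, -0.05 and -0.14.

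Of 19 transcription factors known to act on MMP promoters, 17 were tested with 21 probes. Under exon 1 4 probes rose and 0 fell: both of SNAI2 (0.67 ± 0.10 and 0.66 ± 0.10), ETS2 (0.55 ± 0.10, limma, adjusted p = 0.000681) and TWIST1 (0.63 ± 0.12). Under exon 9 3 rose, SNAI2 on both probes (0.50 and 0.48) and TWIST1 (0.52 ± 0.12). The part of these factors in the MMP9 result was not tested. Under exon 7 0 passed (1 at an unadjusted p below 0.05 by limma). At an unadjusted p below 0.05 by limma, 8 of the 21 probes passed under exon 1 and 7 under exon 9. JUN and FOSL1, picked from several AP-1 genes of the list, differed from control by 0.23 and 0.08 under exon 1, with no call. The list medians were 0.13, -0.02 and 0.07.

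Of 20 matrix substrates, 13 were tested with 15 probes. Under exon 1 4 rose and 0 fell: the collagen COL5A1 (0.50 ± 0.10, limma, adjusted p = 0.00191), the laminin chain LAMB3 (0.55 ± 0.13), the basement membrane linker NID1 (0.52 ± 0.14) and SPARC, a collagen-binding protein (0.56 ± 0.17, adjusted p = 0.0486). The SPARC call held in 2 of 12 fits with 1 array left out, and those of NID1 and ADAMTS9 in 8 of 12. That of SERPINE2 held in 11 of 12. Under exon 9 the TWIST1 call held in 7 of 12 and that of the PLAUR probe at -0.60 in 8 of 12. The other named calls of the lists held in all 12. Under exons 7 and 9 0 passed (1 at an unadjusted p below 0.05 by limma in each). The medians were 0.41, -0.02 and 0.10. Against the 3.49% of all tested probes that rose under exon 1, the 4 lists gave 2 of 21, 5 of 17, 4 of 21 and 4 of 15. Under exon 9, where 1.27% of all tested probes rose and 1.07% fell, 0, 0, 3 and 0 rose and 1, 3, 0 and 0 fell. These lists were assembled with earlier results of these data known, and of their 20 named calls 5 held in the first column set alone and 2 in the second.

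**Figure D5:**
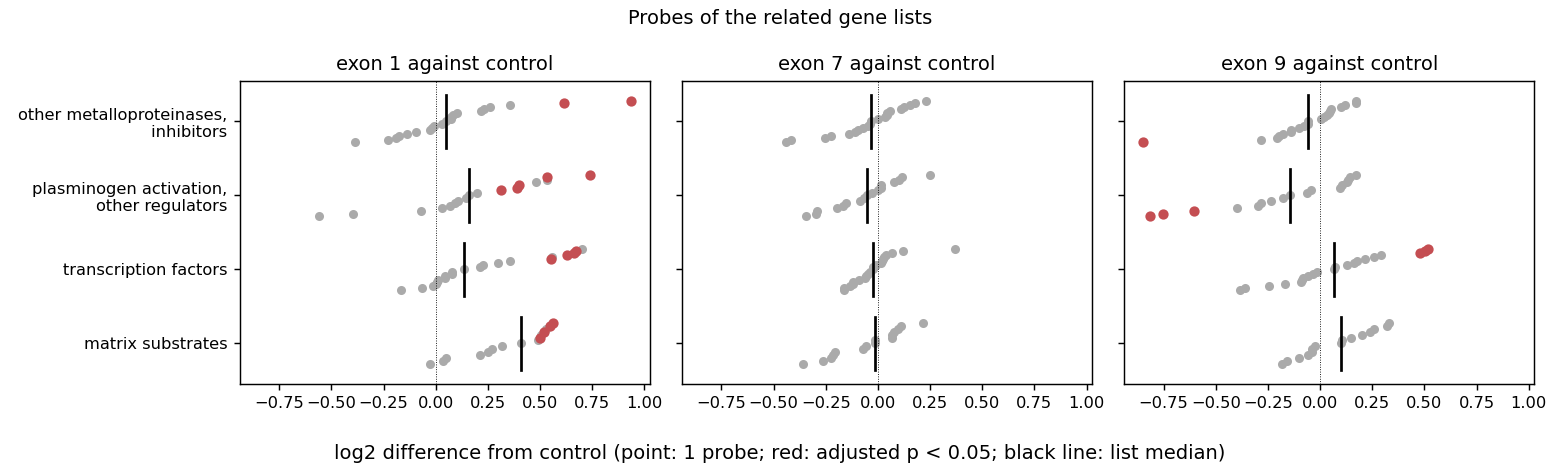
Log2 differences from control of the probes in 4 related gene lists under the exon 1, exon 7 and exon 9 siRNAs (points, probes; red, adjusted p below 0.05; black line, list median). Red points lie to the right under exon 1, where they number 2, 5, 4 and 4, no red point appears under exon 7, and under exon 9 they lie on both sides.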

How the data were processed

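Biotin-labelled cRNA from total RNA was hybridised to Illumina bead arrays. The authors deposited log2 intensities in 2 forms, 1 without normalization between arrays and 1 in the series matrix, where all arrays have the same distribution of values (medians 7.56). The software for either form is not given in the sources used here. Of 47228 complete probes, 30112 had 1 gene symbol, 8 several and 17108 none; 30073 symbols were matched by gene number to RefSeq.

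The non-normalized values were background corrected with limma's normexp (offset 16, olfactory receptor probes as negative controls), quantile normalised and fitted with 1 mean per group over 24 arrays (lmFit, eBayes; limma 3.58.1, R 4.3.3), two-sided, with Benjamini-Hochberg adjustment at 0.05 over 19395 probes. The rule for named genes took all members, the 3 genes most like any member called against control, and up to 4 called genes of each list by smallest adjusted p; RECK, PLAU, JUN, FOSL1, THY1, CD14 and SYN3 were named after their values were seen. The members and lists were chosen with earlier results of these data known. The fit was tested on simulated data, with 50 probes changed at each size under exon 1. Against control it recovered 26% of log2 changes of 0.3, 54% of 0.5, 98% of 1 and 100% of 2. Smaller changes could thus often be missed. Alternatives changed the background correction, normalisation, filter, probe choice, fit, blocks and arrays used; within-column-set fits and the TIMP2 probe comparison are given in the text.

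The titles give same-numbered arrays 1 experiment number, so the numbers pair the samples; deviations of 36 same-numbered pairs correlated by -0.06 to 0.51 (median 0.13; -0.02 between numbers). For 21 of 24 arrays, the best correlated array of another group had the same number. The main fit and the TIMP2 permutation test did not use this pairing. The number of arrays limits the precision. The labels call the arrays biological replicates and do not describe separate cultures further, so p-values measure the spread between these samples.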

Additional observations from a re-analysis of the deposited data

Results flagged for a closer look

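In 44 sets of 6 arrays (each of the 11 member probes in each siRNA group), 8 had a highest or lowest array farther from its neighbour than Dixon's 95% critical value allows, where chance gives about 1 in 20. Among tested probes, MMP9 was high on exon 9 replicate 5 at 6.67 (next 6.17), TIMP1 low on exon 1 replicate 2 at 11.97 (next 12.30), TIMP2 probe 1 high on exon 7 replicate 2 at 12.01 (next 11.67), and TIMP3 low on exon 9 replicate 4 at 6.20 (next 6.81). Among probes near background, MMP3 was low on control replicate 5 at 5.71 (next 6.01), MMP10 high on control replicate 3 at 6.59 (next 5.89) and low on exon 1 replicate 2 at 5.50 (next 5.89), and MMP14 high on exon 7 replicate 2 at 5.67 (next 5.48). The rate of 1 in 20 takes no account of the shared experiments, and 4 of the 8 were replicate 2. TIMP2 probe 1 was highest on replicate 2 in every group (12.21 in controls, 12.23 under exon 1, 12.38 under exon 9). The same held for TIMP2 probe 2, at 8.72 in controls and 8.63, 8.85 and 8.77 under exons 1, 7 and 9.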

How the results depend on the processing

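The MMP9 rise under exon 1 against control passed in all 12 alternatives that could give it (0.69 to 1.58) and with any of 12 arrays left out (1.23 to 1.43). With the replicate number as a block, member probes called rose to 1 for exon 7 against control and 4 for exon 1 against exon 7, and the block changed no other member call. A stricter detection filter, which left MMP9 and TIMP3 untested, gave 0 calls for exon 1 against control, exon 7 and exon 9 and for exon 7 against exon 9. With 3 arrays a group, the first column set gave 1 call for exon 1 against exon 7 and 0 for exon 7 against exon 9, and the second 0 for both and 0 for exon 1 against exon 9. Leaving out 1 array gave 1 to 3 calls for exon 1 against exon 7, with 1 without exon 1 replicate 1 or 2 or exon 7 replicate 2, and 3 without exon 1 replicate 3.

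Reversed directions concerned differences without a call, and their cause was not tested. For TIMP1, exon 1 against exon 9 became -0.0085 under median scaling and -0.12 in the second column set, exon 9 against control -0.098 in the first and exon 7 against exon 9 -0.021 in the second. For TIMP2 probe 2, exon 1 against control became -0.031 and exon 7 against exon 9 -0.027 in the first set. For TIMP2 probe 1, exon 1 against exon 9 became -0.035 in the first set and exon 7 against control 0.033 in the second. With 1 array left out, TIMP1 ranged from -0.0043 to 0.12 for exon 1 and from -0.0093 to 0.082 for exon 9 against control and from -0.026 to 0.074 for exon 1 against exon 9, and TIMP2 probe 2 from -0.018 to 0.18 for exon 1 against control.

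Over all probes, called counts against control for exons 1, 7 and 9 were 1350, 227 and 454, against 2460, 585 and 1116 with the replicate block, 763, 103 and 262 with the compared groups alone, and 309, 15 and 43 in the first column set. Under median scaling higher calls made up 47.6% for exon 7 against control (60.8% before), 69.4% for exon 1 against exon 7 (48.9%) and 26.4% for exon 7 against exon 9 (52.7%). Signal near background limits MMP9 and TIMP3 to bounds in the dim groups and leaves 6 members without a measurable level.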
